A study of Mus musculus with 3 samples.

Results

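The 10 genes described here belong to the stress response run by the transcription factor ATF4: Atf4, Atf5, Atf3, Ddit3 and Nupr1, which act on transcription, and Trib3, Ppp1r15a, Chac1, Asns and Sesn2, which are targets or feedback regulators. They were taken by name, as every probe set whose annotated gene is 1 of the 10. This gave 17 probe sets for 10 genes, out of 45037 probe sets and 18193 named genes measured in all. A probe set is a group of short oligonucleotides on the array that reads 1 transcript region. Of the 17, 14 passed a filter on dim probe sets and represent 9 genes. Both probe sets of Sesn2 and 1 of the 3 of Atf4 did not pass it, and are described outside the counts.

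RNA of the gastrocnemius, a calf muscle, was hybridised to 3 Affymetrix whole-genome mouse expression arrays. All mice were Akt_Cre transgenic on a C57BL/CD1 background and carried an Akt protein fused to an oestrogen-binding domain, made in skeletal muscle only, per the labels, and stabilised by tamoxifen. One group had received oil and was taken at 24 h, and the others had received tamoxifen and were taken at 24 h or 48 h. A pool of 3 to 4 mice went onto the single array of each group. There is thus no replicate error, no test and no p-value, and differences are described by their size. The promoter of the transgene and the age of the mice were not given in the sources used here. Mice without the fusion and a 48 h oil group were not analysed here, so effects of tamoxifen itself, of Akt and of time cannot be told apart.

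ATF4 is a basic leucine zipper (bZIP) transcription factor that is controlled mainly at translation. Phosphorylation of the initiation factor eIF2 by stress kinases lowers general protein synthesis but favours translation of the Atf4 message, and the growth kinase complex mTORC1, which lies downstream of Akt, also raises ATF4 protein. ATF4 then binds composite C/EBP-ATF response elements, together with C/EBP partners, and induces genes for amino acid synthesis and uptake, redox balance and stress signalling. Some of its targets feed back: Ppp1r15a (GADD34) directs dephosphorylation of eIF2, and Trib3 encodes a pseudokinase that binds Akt and ATF4. The arrays measure RNA, so translational control of ATF4 itself is not visible in them.

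The RefSeq table of promoter windows (GRCm38.p6, 250 bases before to 50 after each transcription start) held a window for each of the 10 genes, and a pair of them for Atf5. These were searched on both strands for TGATGNAA, the core of the C/EBP-ATF response element. It was found in 5 of the 10 genes, against 3.97% of all 32851 windows and 4.51% of all 27025 genes with a window. The stretches that hold it are shown because this is the element through which ATF4 is known to act, so that its presence among genes picked as ATF4 targets is not independent of the choice. They read 5′ to 3′ on the strand of the gene, with the matching letters in capitals (TTGCATCA and TTACATCA are the element read on the opposite strand). A match is a description of the letters and not evidence of binding.
Atf3, chr1:191183376-191183503, minus strand: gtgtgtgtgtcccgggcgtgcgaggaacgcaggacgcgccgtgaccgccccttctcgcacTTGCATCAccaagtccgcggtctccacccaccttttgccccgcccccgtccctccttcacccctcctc
Nupr1, chr7:126625513-126625640, minus strand: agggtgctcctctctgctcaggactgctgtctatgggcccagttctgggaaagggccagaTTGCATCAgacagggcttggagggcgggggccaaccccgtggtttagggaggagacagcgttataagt
Chac1, chr2:119350992-119351116, plus strand: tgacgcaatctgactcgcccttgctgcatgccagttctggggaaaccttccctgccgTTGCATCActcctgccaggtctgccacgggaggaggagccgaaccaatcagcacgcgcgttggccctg
Asns, chr6:7693210-7693292, minus strand: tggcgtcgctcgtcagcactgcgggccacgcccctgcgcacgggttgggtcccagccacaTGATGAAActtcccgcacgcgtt
Trib3, chr2:152344028-152344057, minus strand: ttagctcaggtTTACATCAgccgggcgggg

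In Atf3 and Nupr1 the match began 110 bases upstream of the start, in Chac1 193 bases upstream and in Asns 23 bases upstream. In Trib3 it began at base 15 of the transcribed sequence. Atf3, Nupr1 and Chac1 share the same 8 letters, whereas Asns and Trib3 each differ from them at the open position of the motif. Windows of Atf4, Atf5, Ddit3, Sesn2 and Ppp1r15a did not hold these letters, which says nothing about other positions of those genes. A palindromic cAMP response element, TGACGTCA, was present in the window of Ppp1r15a alone among the 10, 12 bases upstream of its start, and in 1.79% of all windows.
Ppp1r15a, chr7:45526269-45526340, minus strand: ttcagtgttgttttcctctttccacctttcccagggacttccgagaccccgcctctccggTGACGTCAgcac

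**Figure D1:**
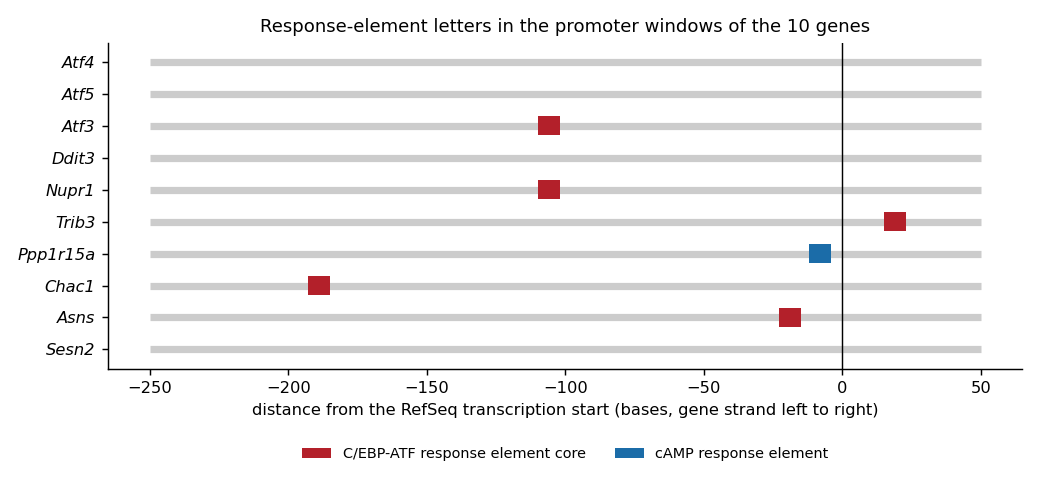
Each grey bar is the promoter window of 1 gene, from 250 bases before to 50 bases after its RefSeq start (vertical line), and coloured boxes mark matches to the C/EBP-ATF response element core (red, 5 genes) and the cAMP response element (blue, Ppp1r15a). Both windows of Atf5 are without a match and are drawn as 1 bar.

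The endoplasmic reticulum stress element (CCAAT and CCACG with 9 bases between them), which is read by the parallel ATF6 and XBP1 arm of the stress response, was in no window of the 10 genes. It was in 9 of 23 windows of a list of genes of that arm, among them Hspa5, Hsp90b1 and Calr, and in 0.119% of all windows. The C/EBP-ATF core was in 1 of those 23, that of Herpud1. The other 14 windows of that arm lacked the endoplasmic reticulum element, as those of the 10 genes did, and no difference between the lists was tested. Of 50 other ATF4 targets, 39 had a window and 14 of these held the C/EBP-ATF core, so the core is not particular to the 10 genes. Because fewer than 80% of that list had a window, its share is void as a check.

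All levels given are scaled intensities, and log2 ratios were taken after low values had been set to a floor of 4.05. A gene is called higher or lower at 2-fold or more on its brightest kept probe set, and 11092 genes were compared in this way. Kept probe sets of the same gene differed with a pooled SD of 0.49 in log2 ratio at 24 h, 0.41 at 48 h and 0.44 between the tamoxifen arrays. This is a technical yardstick that does not measure variation between mice. All 12 marker genes of muscle fibres were measured, and none was past 2-fold on its brightest kept probe set. A dimmer kept probe set of Ryr1 was at -1.44 at 24 h, and a dimmer one of Myh1 was more than 2-fold higher at 48 h. On the brightest kept probe sets the markers summed to 86946 with oil, 83126 after 24 h of tamoxifen and 85324 after 48 h. In whole muscle, more cells of a type and more RNA per cell cannot be told apart.

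After 24 h of tamoxifen, 2 of the 9 genes compared were higher than oil (Atf5 and Atf3) and 1 was lower (Chac1). Over all genes, 2.35% were higher and 2.48% lower by the same rule. After 48 h, 3 of 9 were higher (Trib3, Ddit3 and Atf3) and none was lower, where 3.72% of all genes were higher and 2.71% lower. Between the tamoxifen arrays, 3 of 9 were higher at 48 h (Trib3, Chac1 and Ddit3) and none was lower, against 1.8% and 1.42% of all genes. The median log2 ratio of the 9 genes was 0.41 at 24 h, 0.65 at 48 h and 0.09 between the tamoxifen arrays, beside 0.04, 0.01 and -0.02 for all genes. The members followed several courses, with Atf5 highest at 24 h, Trib3 highest at 48 h, Chac1 low at 24 h alone and Nupr1 lowest at 48 h.

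**Figure D2:**
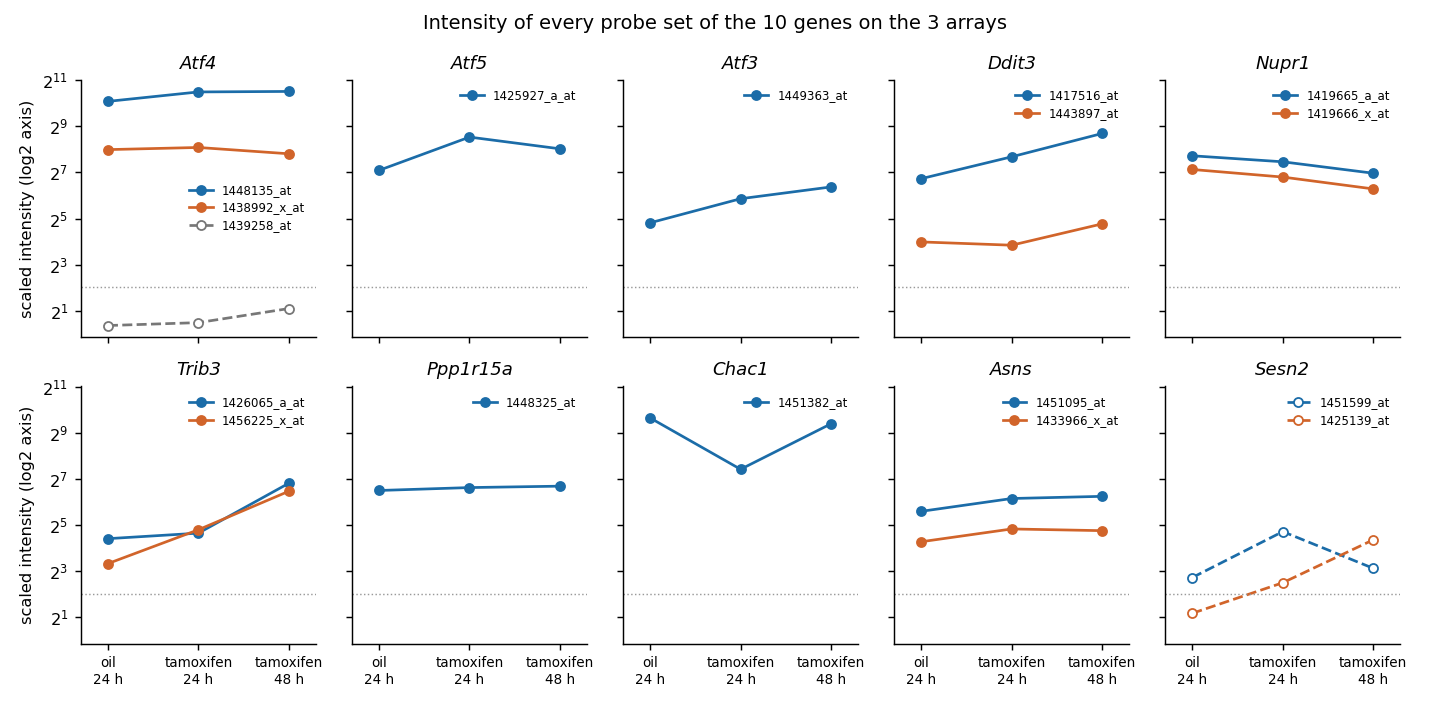
Scaled intensity (log2 axis) of every probe set of the 10 genes on the oil 24 h, tamoxifen 24 h and tamoxifen 48 h arrays, 1 panel per gene and 1 point per array; filled points passed the filter, open points with dashed lines did not, and the dotted line is the floor of 4.05. Trib3 is highest at 48 h on both probe sets, Chac1 dips at 24 h, and both probe sets of Sesn2 follow different courses.

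Atf4, the factor that gives the response its name, had readings of 1081 with oil, 1436 after 24 h of tamoxifen and 1457 after 48 h on its brightest probe set, 1448135_at. Both tamoxifen readings lay above oil, by log2 ratios of 0.41 and 0.43, and were within 2-fold of it. A second kept probe set, 1438992_x_at, read 254, 271 and 224, with log2 ratios of 0.09 and -0.18. The suffix x marks probe sets with oligonucleotides that can also match other sequences. The probe sets therefore put Atf4 close to oil at both times and disagreed on the sign at 48 h, with a gap of 0.61 against a pooled SD of 0.41. The remaining probe set, 1439258_at, read 1.29, 1.40 and 2.14, below the floor on every array.

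Atf5 encodes a relative of ATF4 whose message is also under translational control, and its single probe set read 136, then 369.9 and 260.1 in the order oil, 24 h, 48 h. It was 2.72-fold higher at 24 h, the 89th highest ratio of 11092 genes. At 48 h the reading lay between the others, at 1.91-fold above oil and just under the 2-fold rule. Of probe sets of like brightness, 3.58% were past 2-fold at 24 h in either direction. The 24 h call held under each of the 10 processing alternatives, with log2 ratios from 1.34 to 1.54. Those of filter, floor and probe set choice could not move it, since the gene has 1 probe set, above the floor.

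Atf3 encodes a bZIP factor induced by many stresses and by ATF4, and its readings were 28.2 (oil), 58.1 (24 h) and 82.7 (48 h). Each later array was above the one before, by 2.06-fold for 24 h over oil and 2.94-fold for 48 h over oil. Its 48 h ratio was the 124th highest of 11092. The gene has 1 probe set of low intensity, and 6.70% of probe sets of like brightness were past 2-fold at 48 h. On the log2(value + 16) scale its 24 h ratio was 0.75 and no longer past 2-fold, while the 48 h ratio was 1.16.

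Ddit3 encodes CHOP, a C/EBP-family factor that acts with ATF4 and is linked to cell death in prolonged stress. On its brightest probe set, 1417516_at, the level was 106 with oil, 205 at 24 h and 412 at 48 h. The signal was thus 1.93-fold above oil at 24 h, just under the rule, and 3.89-fold above it at 48 h, where it ranked 55th of 11092. The second kept probe set, 1443897_at, is dim and read 15.9, 14.4 and 27.3. It was near oil at 24 h (log2 ratio -0.14) and 1.72-fold above it at 48 h. Both probe sets placed 48 h above 24 h by nearly the same amount, 2.01-fold and 1.90-fold, but they disagreed by 1.09 in log2 about 24 h against oil. The brightest probe set's step from 24 h to 48 h was past 2-fold under 7 of 10 alternatives, with log2 ratios from 0.85 to 1.02. Taking the median of both probe sets lowered the 48 h log2 ratio to oil from 1.96 to 1.37, still past 2-fold.

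Nupr1, a small nuclear stress protein that assists transcription, went the other way. On 1419665_a_at the level was 211 with oil, 176 at 24 h and 125 at 48 h, and on 1419666_x_at it was 139.7, 111 and 78.0. The probe sets ranked the arrays in the same order and gave log2 ratios at 48 h of -0.76 and -0.84, which is within 2-fold but larger than the pooled SD of 0.41. Of 11092 genes, 698 had a lower ratio at 48 h. Under all 10 alternatives the 48 h ratio lay between -0.82 and -0.69. Nupr1 and Atf3 hold the same response-element letters at the same distance from the start and had ratios of opposite sign.

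Trib3, the pseudokinase, had the largest ratio of the group at 48 h. On 1426065_a_at the level was 21.3 with oil, 25.1 at 24 h and 112 at 48 h. On 1456225_x_at it was 10.1, 27.8 and 88.4. Both probe sets placed 48 h far above the other arrays, by 5.29-fold and 8.79-fold over oil and by 4.48-fold and 3.18-fold over tamoxifen 24 h. The second of them had a deposited oil value of 9.97, under that array's median of 15.2, and passed the filter only through the tamoxifen arrays, so its 8.79-fold is no independent support. On the brightest, 1426065_a_at, the step between the tamoxifen arrays was the 8th highest of 11092 genes and the 48 h ratio to oil the 32nd. At 24 h the probe sets disagreed, at log2 ratios of 0.24 and 1.47, and 19.5% of the 5001 genes with several kept probe sets had a range over 1 in that comparison. Trib3 was dim on the oil array, and 7.61% of probe sets of like brightness were past 2-fold at 48 h. Its 48 h ratio was past 2-fold under each of the 9 alternatives that kept the gene, between 1.78, on the log2(value + 16) scale, and 2.77 in log2.

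Ppp1r15a, the eIF2 phosphatase subunit, was at 90.4 with oil, 98.7 at 24 h and 103 at 48 h. Its log2 ratios of 0.13 and 0.19 were smaller than the pooled SD between probe sets. It was the member with the least movement over the 3 arrays on a kept brightest probe set, and the 1 with the cAMP response element shown above.

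Chac1, an enzyme that degrades glutathione and a well-known ATF4 target, was at 799 with oil, 171 at 24 h and 671 at 48 h. The 24 h array alone was low, 4.68-fold below oil and 3.92-fold below tamoxifen 48 h, and the 48 h reading was 1.19-fold below oil. A 24 h reading 2-fold or more under both remaining arrays was seen for 72 genes, 0.649% of those compared. By the smaller of its gaps to the other arrays Chac1 stood 2nd among them. Such dips were rare at its brightness, at 3 of 1090 probe sets, its own included. This measure was not planned and was taken for Chac1 alone, so its rank and rarity are descriptions and no support. The gene rests on 1 probe set and 1 array at 24 h, so a fault of that reading and a response of the tissue cannot be told apart. Its 24 h ratio stayed between -2.32 and -2.12 under the 10 alternatives, of which those of filter, floor and probe set choice could not move it. Its direction at 24 h was opposite to that of Atf5 and Atf3.

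Asns, the asparagine synthetase, was at 48.3 with oil, 71.0 at 24 h and 75.8 at 48 h on 1451095_at, and at 19.4, 28.5 and 27.0 on 1433966_x_at. Both tamoxifen arrays were above oil on both probe sets, by log2 ratios of 0.56 and 0.55 at 24 h and of 0.65 and 0.48 at 48 h. None of these reached 2-fold. The probe sets differed by 0.0015 in log2 at 24 h, the closest pair in the group.

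Sesn2 encodes sestrin 2, a leucine-sensing inhibitor of mTORC1. On 1451599_at the level was 6.62 with oil, 26.3 at 24 h and 8.73 at 48 h, and on 1425139_at it was 2.26, 5.66 and 20.5. The former peaked at 24 h, 3.97-fold above oil, and the latter at 48 h, at least 5.07-fold above an oil reading below the floor. The probe sets did not give 1 course for the gene, and neither passed the filter, so it entered no count.

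**Figure D3:**
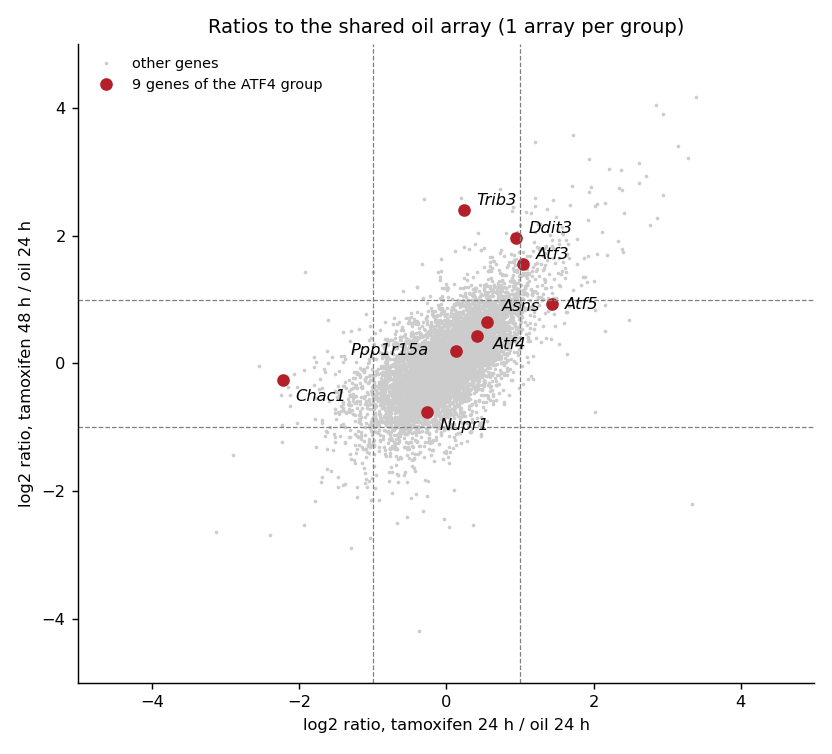
Log2 ratio to oil at 24 h (x axis) against that at 48 h (y axis) for 11092 genes (grey) and the 9 genes of the ATF4 group that were compared (red), with dashed lines at 2-fold. Both axes share the single oil array, so the diagonal spread of the cloud is no evidence of a shared response; Trib3 lies above the cloud and Chac1 to its left.

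Other genes of the pathway were read from lists written from general knowledge. On the brightest kept probe set, none of 20 genes for the eIF2 kinases, eIF2, its exchange factor eIF2B and its phosphatase was past 2-fold. This held in every comparison, with median log2 ratios of 0.15 at 24 h and 0.03 at 48 h. Dimmer kept probe sets passed it in both directions, such as Ppp1cc at 1.27 and Gcn1 at -1.06, both at 24 h. Eif2ak3 (PERK), the kinase of the endoplasmic reticulum, read 50.9, 50.4 and 52.5. Eif2ak4 (GCN2), the kinase of amino acid shortage, read 14.0, 20.8 and 16.5. The oil reading of Eif2ak4 lay under the median of the oil array, so the gene passed the filter only through the tamoxifen arrays. Eif2s1, the phosphorylated subunit, was not matched to a probe set. RNA levels do not report the activity of these kinases.

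Of 30 bZIP partners and relatives, none was higher and Jund and Dbp were lower at 24 h. Over all genes, 2.35% were higher and 2.48% lower at 24 h, and 3.72% and 2.71% at 48 h. Dbp was also lower at 48 h, at a log2 ratio of -1.01, just past the rule. Its dimmer kept probe set was within 2-fold, at -0.59 at 24 h and -0.29 at 48 h. Of the C/EBP partners of ATF4, Cebpb had log2 ratios of -0.04 and -0.07. Cebpg was above oil on both tamoxifen arrays without reaching 2-fold, at 0.55 and 0.35. Among 7 paralogues of the members none was past 2-fold in any comparison on its brightest kept probe set. Dimmer kept probe sets of Sesn1 reached -1.04 at 24 h and -1.16 at 48 h. The relatives of Trib3 and Chac1, the members with the largest steps, are named here, a choice made after their values were seen. Trib1 was at 37.4 with oil, 22.7 at 24 h and 31.1 at 48 h. Trib2 was at 167 with oil, 208 at 24 h and 203 at 48 h, and Chac2, also a glutathione-degrading enzyme, was at 403, 609 and 600.5. Between the tamoxifen arrays Trib1 had a log2 ratio of 0.46 and Trib2 of -0.03, where Trib3 had 2.16. Chac2 had 0.60 at 24 h, where Chac1 had -2.23.

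For the counts below, 2.35% of all genes were higher and 2.48% lower at 24 h, and 3.72% and 2.71% at 48 h. Of 39 other ATF4 targets compared, 2 were higher at 24 h and none was lower. Mthfd2, a mitochondrial folate enzyme, was at 34.7 with oil, 87.8 at 24 h and 83.7 at 48 h, and Slc7a5, a subunit of a leucine transporter, was at 13.5, 27.7 and 38.9. The oil reading of Slc7a5, and that of Pdia4 below, lay under the median of the oil array, so these genes passed the filter only through the tamoxifen arrays. At 48 h Mthfd2, Slc7a5 and also Psat1 and Aldh18a1, enzymes of serine and proline synthesis, were higher, at log2 ratios of 1.12 to 1.53. Ddit4, an inhibitor of mTORC1, was lower at 48 h (-1.14), as was the folate enzyme Mthfd1l (-1.12). The median of the 39 was 0.15 at 24 h and 0.21 at 48 h, below that of the 9 members at each time; the difference was not tested. Of 26 genes of the ATF6 and XBP1 arm, none was past 2-fold at 24 h and 3 were higher at 48 h on the brightest kept probe set. These were Pdia4, Hspa5 and Manf, at 1.19, 1.10 and 1.04, and Xbp1 itself was at 0.68. The 3 kept probe sets of Hspa5 ranged from 0.03 to 1.45 at 48 h. A dimmer kept probe set of Hyou1 was more than 2-fold higher at both times. It reached 2.13 at 48 h, where the brightest of that gene was at 0.60. The median of the 26 genes was 0.28 at 24 h and 0.37 at 48 h. None of 15 mitochondrial chaperone and protease genes was past 2-fold at either time on its brightest kept probe set, with medians of 0.22 and 0.12. A dimmer kept probe set of Hspa9 was at -1.34 at 48 h.

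**Figure D4:**
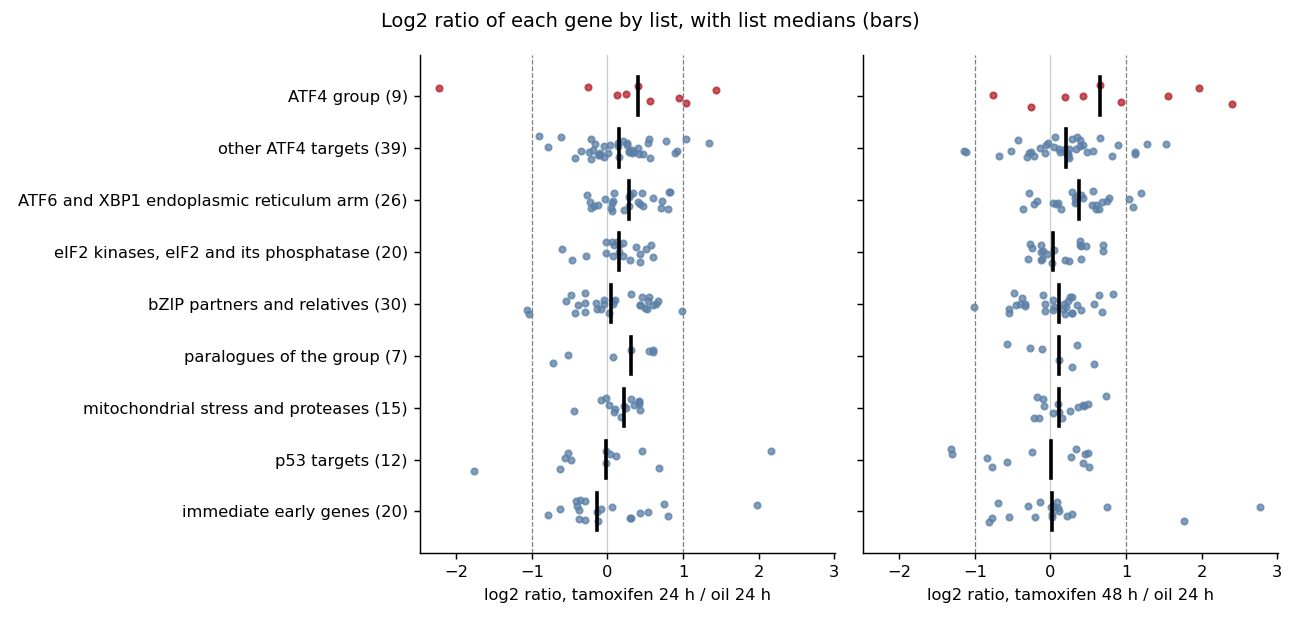
Log2 ratio to oil of each compared gene at 24 h (left) and 48 h (right), by list, with the number compared in parentheses, black bars at the list medians and dashed lines at 2-fold. Vertical positions within a list are random, and some genes stand in more than 1 list. The ATF4 group, in red, has the widest spread at 24 h of the lists drawn, from -2.23 to 1.44, apart from the p53 targets.

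The genes whose pair of ratios to oil lay closest to that of a member were found among 10747 named genes above the floor on all 3 arrays. The measure is a distance in log2 over 2 ratios that share the oil array, so close neighbours are common. Nearest to Atf3 was Slc7a5, at a distance of 0.02, followed by Slc2a10 and Ifrd2. Nearest to Ddit3 were Ache (0.08), Slc16a3 (0.09) and Mamstr (0.16), and nearest to Atf5 were Igfals, Pla2g7 and Cxcr4, at 0.03 to 0.05. Trib3 and Chac1 had sparser surroundings. The closest genes to Trib3 were Tceal7 (0.18), Bhlhe41 (0.40) and Klhl41 (0.56), and those to Chac1 were Trpm2 (0.14), Zbed6 (0.18) and Nwd1 (0.22). The oil readings of Slc7a5, Slc2a10, Igfals, Cxcr4 and Bhlhe41 lay under the median of the oil array. These genes passed the filter only through the tamoxifen arrays, so their closeness to a member is no independent support. Likewise, Trpm2 lay under the median of the tamoxifen 24 h array and passed the filter only through the remaining arrays.

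Markers of other cells were read beside these values, since Atf3, Nupr1 and Ddit3 are also expressed outside muscle fibres. None of 10 macrophage and leukocyte markers was past 2-fold, and their sum was 2288 with oil, 2360 at 24 h and 1947 at 48 h. The 7 endothelial markers summed to 1201, 1093 and 865, with 6 of them below oil at 48 h. Of 7 fibroblast and tendon markers, 2 were above oil at 48 h and the median log2 ratio was -0.27. Col1a1 was past 2-fold at 1.18 on its brightest kept probe set and at 0.13 on a dimmer one, whereas Tnmd was at -0.96 and Dcn at -0.41. Of 3 satellite cell markers, Cdh15 was higher at both times, at 1.25 and 1.79, while Pax7 was at -0.51 and -0.45 and Myf5 at 0.14 and -0.35. Of 6 adipocyte markers 3 were compared and Cidec was higher at 24 h. Of 5 Schwann cell markers 3 were compared and none was past 2-fold on its brightest kept probe set. Among dimmer kept probe sets, Fabp4 reached -1.55 at 24 h and Mbp -1.38 at 48 h. The part of these cells in the values of the 10 genes was not tested.

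**Figure D5:**
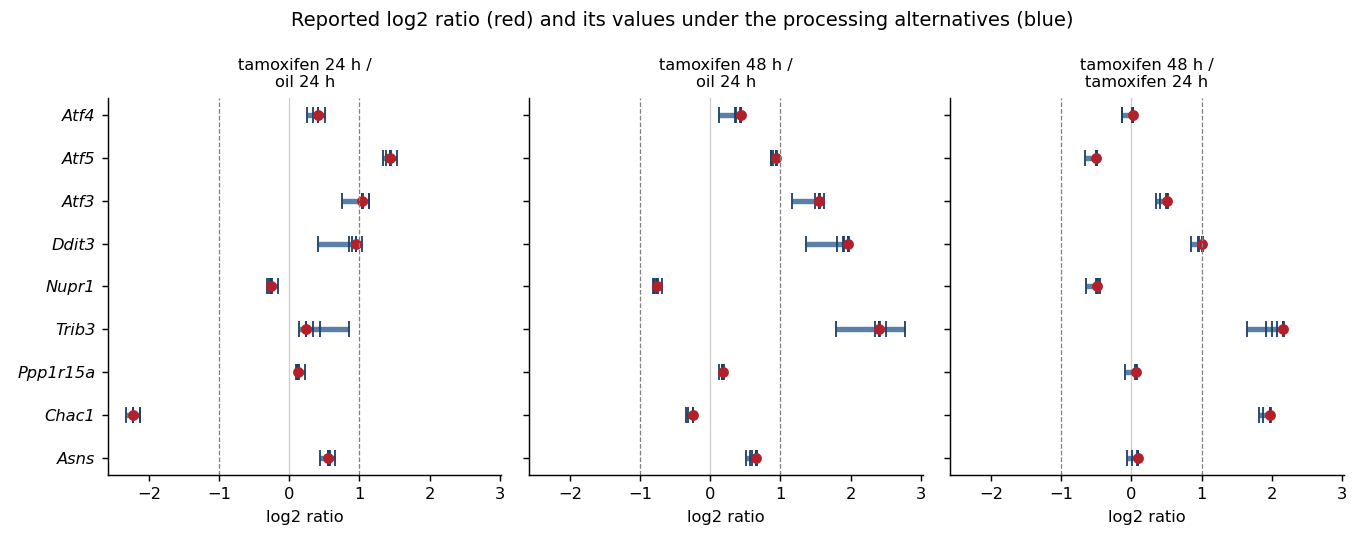
Log2 ratio of each of the 9 genes in the 3 comparisons as reported (red points) and under each processing alternative that kept the gene (blue ticks, with a bar over their range); dashed lines mark 2-fold. Atf5 and Chac1 at 24 h and Trib3, Ddit3 and Atf3 at 48 h stay past 2-fold throughout, while Ddit3 and Atf3 at 24 h straddle the line.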

How the data were processed

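RNA from 3 pools of gastrocnemius was measured on 3 arrays. The deposited values were treated as linear intensities, an assumption, with every probe set summarised to 1 value per array by the authors. Their background correction, summary method and scaling are steps not given in the sources used here. Detection calls were not used. After removal of 64 controls from 45101 probe sets, GEO's annotation named 1 gene for 34945, several for 932 and none for 9160, with symbols updated through Entrez identifiers to RefSeq GRCm38.p6. No member shares a probe set with another gene.

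Probe sets were kept at a mean percentile rank of 0.5 or more over the 3 arrays (21804). Arrays were scaled to a common median over these, by 1.01, 0.945 and 1.05 in the order oil, tamoxifen 24 h, tamoxifen 48 h. Values were set to a floor at the 25th percentile (4.05) and log2 was taken. Each gene was represented by whichever kept probe set ranked highest on average. With 1 array per group, only sizes are given, and precision is limited by that number of arrays. The 10 alternatives changed scaling, filter, floor, pseudocount or probe set choice. Named were all 10 genes, list members past 2-fold (up to 4 per direction), a few fixed partners and the 3 genes nearest to each member past 2-fold against oil. Members and lists were chosen with earlier results of these data known, so no list is independent support. Likeness in brightness uses 20 equal bins of kept probe sets. The calculation was tested on simulated data. Python 3.11.15, numpy 2.4.6 and pandas 2.3.3 were used.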

Additional observations from a re-analysis of the deposited data

Results flagged for a closer look

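Both probe sets of Sesn2, which the filter on dim probe sets left out of every count, had a tamoxifen reading above the floor and at least 2-fold above oil. On 1451599_at this was the 24 h reading of 26.3, and on 1425139_at the 48 h reading of 20.5. At the other time the probe sets read lower, at 8.73 and 5.66, both above the floor of 4.05. No group held enough arrays to look for an outlying sample.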

How the results depend on the processing

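No paired analysis was possible because each group is 1 array, and for the same reason no replicate could be left out. All 10 alternatives gave values. Of the 6 calls of a member against oil, only that of Atf3 at 24 h was lost where the gene was compared. With the rank filter at 0.75, 6 of the 9 genes were compared (Trib3, Atf3 and Asns were too dim), and 1 was higher at 24 h and 1 at 48 h. With log2(value + 16), 1 was higher at 24 h. With no filter or at rank 0.25 Sesn2 entered, and 1 member was lower at 48 h than at 24 h. Of 154 pathway list genes compared, members left out, 7 were past 2-fold at 24 h (4 higher, 3 lower) and 14 at 48 h (9 and 5). Between the tamoxifen arrays 4 were (1 and 3). Over all genes, 2.35% were higher and 2.48% lower at 24 h, 3.72% and 2.71% at 48 h, and 1.8% and 1.42% between the tamoxifen arrays. The counts of list genes were 12 at 24 h and 9 between the tamoxifen arrays with no filter or rank 0.25. They were 4 at 24 h and 8 at 48 h at rank 0.75, and 4 at 24 h and 6 at 48 h with log2(value + 16). Of 261 log2 ratios of members under the alternatives, 256 moved by less than the pooled SD between probe sets, and no called ratio changed sign. Many of the 261 could not move. A changed filter or floor leaves the ratio of a kept probe set above the floor as it is. The median over probe sets does the same for a gene with 1 probe set. All 240 list medians moved by less than the pooled SD.

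Unscaled, the median of all genes was 0.13 at 24 h and -0.18 between the tamoxifen arrays. Higher genes made up 48.7% of all calls at 24 h, against 63.8% unscaled and 60.04% after quantile normalization. The share at 24 h was 35.9% with no filter, 36.8% at rank 0.25, 63.2% at rank 0.75 and 64.1% with log2(value + 16). Between the tamoxifen arrays it was 56.0%, against 29.3% unscaled and 43.0% after quantile normalization. At 48 h it was 57.8%, against 47.3% with no filter, 68.3% at rank 0.75 and 69.0% with log2(value + 16). Dim signal limits Trib3, Atf3, Asns and Sesn2 most.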

Other observations

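Of 12 p53 targets compared, Cdkn1a, the cell cycle inhibitor p21, was at 148 with oil, 661 at 24 h and 211 at 48 h, a peak at 24 h where Chac1 had its dip. Eda2r read 159.6, 46.9 and 64.3, lower at both times, and Trp53inp1 read 265, 179 and 107, lower at 48 h. The median log2 ratios of the list were -0.02 and 0.01. Among 20 immediate early genes, Nr4a3 read 5.50, 21.5 and 37.3 and Egr1 115, 193 and 393, while the list medians were -0.13 and 0.03. The oil reading of Nr4a3 was near the floor of 4.05 and under the median of the oil array, so the gene passed the filter only through the tamoxifen arrays. Nfil3, a bZIP repressor of the clock output, read 72.6, 144 and 55.8 and was 2.58-fold lower at 48 h than at 24 h.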
